A study of Saccharomyces cerevisiae with 42 samples.

Results

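The genes described here are the 10 yeast genes that make, break down and control glycogen in the array data: PGM2, UGP1, GLG1, GLG2, GSY1, GSY2, GLC3, GAC1, GPH1 and GDB1. They were chosen by gene symbol, as 10 of the 5656 genes that the platform annotation names. Each of the 10 has 1 probe set (a group of array probes for 1 transcript), so no choice between probe sets was needed.

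Glycogen is a branched glucose store. Phosphoglucomutase (Pgm2) turns glucose 6-phosphate into glucose 1-phosphate, and UDP-glucose pyrophosphorylase (Ugp1) makes from it the activated sugar UDP-glucose. The glycogenins Glg1 and Glg2 start a chain on themselves, the glycogen synthases Gsy1 and Gsy2 lengthen it, and the branching enzyme Glc3 adds branch points. Glycogen phosphorylase (Gph1) and the debranching enzyme (Gdb1) release the glucose again. Gac1 brings the protein phosphatase Glc7 to glycogen synthase, which is active when dephosphorylated. Many of these genes are known in budding yeast as stress-induced genes, and trehalose, a second glucose store, is made from the same UDP-glucose.

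Total RNA of Saccharomyces cerevisiae was biotin-labelled and measured on 42 Affymetrix arrays, 2 for each of 3 strains at 7 times: unheated, and 5, 10, 15, 20, 25 or 30 min into a heat stress of 39 C. All 3 strains were grown in YPD, a rich glucose medium, to log phase. They share the mating type MAT α, the alleles leu2-3 112 and ura3-52, the mutations rme1, trp1 and his4, and HMLa. JK939a is the parental strain. The strain dpl1D carries dpl1:KanMX and so lacks the enzyme that cleaves sphingoid base phosphates, which derive from the backbones of sphingolipids. The strain lcb4D/lcb5D carries lcb4::KanMX and lcb5::KanMX and so lacks the kinases that make those phosphates. The labels do not say whether a strain is 1 clone, nor whether replicates were separate cultures, so p-values measure only how far these samples spread, part of which may be technical.

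Signals are on a log2 scale, so a difference of 1 is a 2-fold change. The deleted genes followed the labels: before heat DPL1 read 3.37 in dpl1D against 8.83 in JK939a, and in lcb4D/lcb5D LCB4 read 2.70 against 5.28 and LCB5 3.21 against 5.25. The α-specific MF(ALPHA)1, MF(ALPHA)2, SAG1 and STE3 read 8.01 to 12.2 over the 3 strains, as means before heat. The a-specific STE2, STE6, AGA2, BAR1, MFA1 and MFA2 read 2.36 to 5.24. Of these MFA2 was highest (5.03 to 5.24), near the LCB4 and LCB5 signals of JK939a. One JK939a array, replicate 1 before heat, stands apart. A probe set with no annotated gene read 11.8 or more on all 28 arrays of the deletion strains, 4.27 or less on 13 JK939a arrays, and 8.15 on that array. The mean heat responses of JK939a are therefore also given without it, while its responses at single times are not. The replicate courses differed too: in replicate 1 the control probe sets for 18S ribosomal RNA had a mean of 13.1 ± 0.15 (SD, n = 21 arrays), and in replicate 2 of 7.05 ± 2.70. The signal of the SRB4 control near the 3′ end of its transcript minus that near the 5′ end averaged 0.52 ± 0.27 in replicate 1 and 1.97 ± 0.54 in replicate 2 (log2; SD, n = 21 arrays each). The part of these differences in the results was not tested.

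All 10 glycogen genes rose with heat in all 3 strains. The rise, taken as the mean of the 6 heat times minus before heat, passed the test for 10 of 10 genes in JK939a, where 21.8% of all genes tested were called higher. It passed for 10 of 10 in dpl1D (20.6% of all genes higher) and 10 of 10 in lcb4D/lcb5D (19.1%). The test was limma's moderated test with Benjamini-Hochberg adjustment over all 5656 genes, and a gene is called at an adjusted p under 0.05. The median of the 10 log2 changes was 3.00 in JK939a, 3.57 in dpl1D and 3.22 in lcb4D/lcb5D, while the median of all genes was -0.02, -0.05 and -0.02. Without the JK939a array that stands apart, the JK939a rise was 5.51 for PGM2 and 4.36 for GSY2. It was 3.96 for GPH1, 3.07 for GDB1, 2.84 for GLC3, 2.59 for GAC1 and 2.19 for UGP1. GLG1, GLG2 and GSY1 are given without that array below. On the arrays themselves, all 12 heated arrays lay above both arrays before heat for 8 of the 10 genes in JK939a, as for 15.5% of all genes. The same held for 9 of 10 in dpl1D (16% of all genes) and 10 of 10 in lcb4D/lcb5D (13.2%). RNA of whole cultures was measured, so a change in every cell and a larger change in some cells cannot be told apart.

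**Figure D1:**
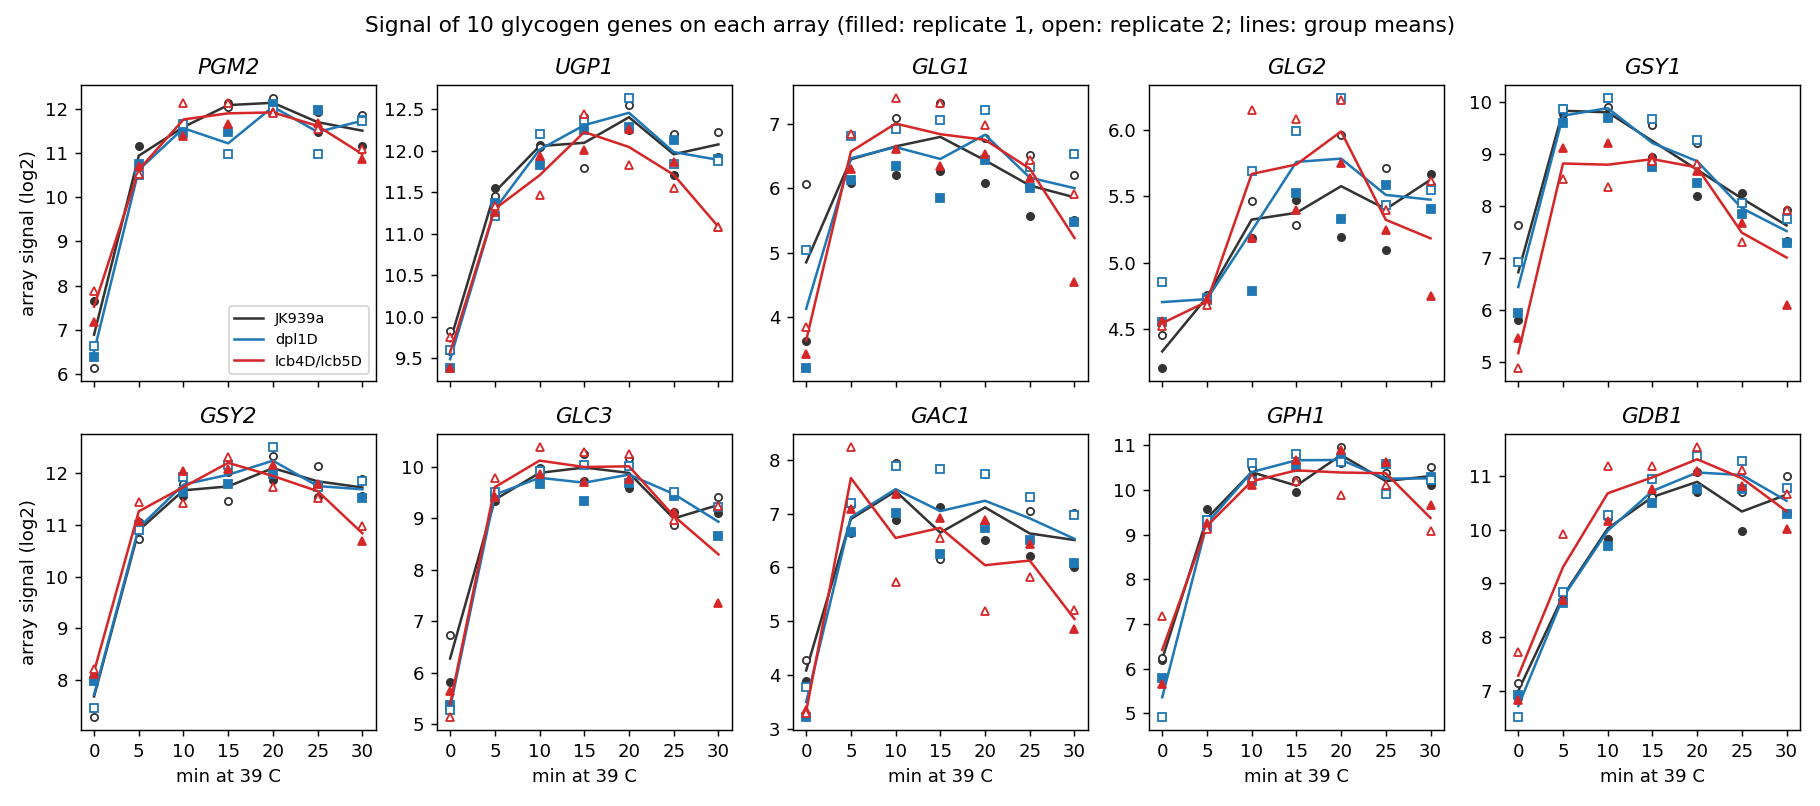
Each panel plots the log2 array signal of 1 glycogen gene against min at 39 C, with filled symbols for replicate 1, open symbols for replicate 2 and a line through the means of the 2 arrays of each strain. GSY1 peaks at 5 to 15 min and falls again, GDB1 is highest at 20 to 25 min, and GLG2 lies near its level before heat at 5 min.

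PGM2, which supplies glucose 1-phosphate, had the highest change of the 10 genes in JK939a and dpl1D, in dpl1D only just above GPH1 (4.90). Its 2 arrays before heat read 7.65 and 6.14 in JK939a, 6.40 and 6.64 in dpl1D, and 7.17 and 7.88 in lcb4D/lcb5D. The 12 heated arrays had a lowest, median and highest signal of 10.7, 11.7 and 12.2 in JK939a, of 10.5, 11.6 and 12.1 in dpl1D, and of 10.5, 11.6 and 12.1 in lcb4D/lcb5D. No heated array overlapped the arrays before heat in any strain. The log2 rise was 4.76 ± 0.28 in JK939a (SE of the fit; 27.1-fold; adjusted p = 1.34e-12), 4.92 ± 0.28 in dpl1D (30.3-fold; adjusted p = 4.1e-13) and 3.93 ± 0.28 in lcb4D/lcb5D (15.3-fold; adjusted p = 3.98e-11).

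UGP1, which makes UDP-glucose for both glycogen and trehalose, started at a signal of 9.59 and 9.83 before heat in JK939a, 9.38 and 9.59 in dpl1D, and 9.38 and 9.76 in lcb4D/lcb5D. Its heated arrays had a lowest, median and highest signal of 11.5, 12.1 and 12.6 in JK939a, 11.2, 12.02 and 12.6 in dpl1D, and 11.1, 11.7 and 12.4 in lcb4D/lcb5D, again with no overlap. The log2 rise was 2.31 ± 0.18 in JK939a (adjusted p = 2.37e-10), 2.50 ± 0.18 in dpl1D (adjusted p = 3.27e-11) and 2.11 ± 0.18 in lcb4D/lcb5D (adjusted p = 1.08e-09). These were 4.96-, 5.67- and 4.31-fold.

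The 2 glycogenin genes had the 2 lowest responses in JK939a and the least stable calls. GLG1 read 3.64 and 6.07 before heat in JK939a, where the second array lay above 2 of the 12 heated ones (lowest 5.51, median 6.24, highest 7.32). In dpl1D it read 3.22 and 5.05 before heat, and 5.48, 6.40 and 7.22 (lowest, median, highest) when heated. In lcb4D/lcb5D it read 3.43 and 3.86 before heat, and 4.55, 6.49 and 7.40 when heated. Thus the groups overlapped in JK939a and not in the deletion strains. The log2 rise was 1.52 ± 0.51 in JK939a (adjusted p = 0.0165), 2.29 ± 0.51 in dpl1D (adjusted p = 0.00055) and 2.81 ± 0.51 in lcb4D/lcb5D (adjusted p = 7.08e-05). Without the JK939a array that stands apart, the JK939a value of GLG1 was 0.30 ± 0.61 (adjusted p = 0.742), so that call rests on 1 array before heat. Without replicate 1 before heat in dpl1D, its value there was 1.38 ± 0.66 (adjusted p = 0.106). GLG1 was also the 1 gene of the 10 that missed the joint test of any heat time in JK939a (adjusted p = 0.209; 38.8% of all genes passed it).

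GLG2 had the smallest change of the 10 genes in every strain. It also had the dimmest signal of the 10, with a mean over all arrays of 5.27, above 26.4% of genes. Before heat it read in the range of the a-specific MFA1 and MFA2 (3.87 to 5.24). GAC1, and GLG1 on most arrays, read as low before heat. How far low signals narrow a change was not tested. The arrays of GLG2 before heat read 4.20 and 4.45 in JK939a, 4.55 and 4.85 in dpl1D, and 4.56 and 4.52 in lcb4D/lcb5D. Heated arrays ran from 4.72 to 5.96 (median 5.37) in JK939a, from 4.72 to 6.24 (median 5.48) in dpl1D, and from 4.68 to 6.23 (median 5.40) in lcb4D/lcb5D. In dpl1D 3 of the 12 heated arrays did not exceed both arrays before heat, while in the other strains all 12 did. The log2 rise was 1.01 ± 0.27 in JK939a (adjusted p = 0.00308), 0.72 ± 0.27 in dpl1D (adjusted p = 0.0317) and 0.90 ± 0.27 in lcb4D/lcb5D (adjusted p = 0.00872). Without replicate 1 before heat its value was 0.89 in JK939a (adjusted p = 0.0666), 0.56 in dpl1D (adjusted p = 0.253) and 0.91 in lcb4D/lcb5D (adjusted p = 0.0683). Without replicate 2 before heat it was 1.14 in JK939a (adjusted p = 0.0203), 0.87 in dpl1D (adjusted p = 0.0753) and 0.88 in lcb4D/lcb5D (adjusted p = 0.0827). Thus the call of GLG2 was lost on leaving out either array before heat in the deletion strains, and replicate 1 in JK939a. Such a fit has 1 array before heat and so less precision. In lcb4D/lcb5D the value stayed near 0.90 without either array, while its SE rose from 0.27 to 0.38.

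Of the glycogen synthases, GSY2, the isoform that carries most synthase activity, read 8.08 and 7.30 before heat in JK939a, 7.98 and 7.46 in dpl1D, and 8.11 and 8.22 in lcb4D/lcb5D. Its heated arrays had a lowest, median and highest signal of 10.7, 11.7 and 12.3 in JK939a, 10.9, 11.8 and 12.5 in dpl1D, and 10.7, 11.6 and 12.3 in lcb4D/lcb5D. No heated array overlapped those before heat. GSY2 rose by 3.97 ± 0.22 (log2) in JK939a (15.6-fold; adjusted p = 6.26e-13), 4.0 ± 0.22 in dpl1D (16.0-fold; adjusted p = 3.02e-13) and 3.43 ± 0.22 in lcb4D/lcb5D (10.8-fold; adjusted p = 1.09e-11). In the gene order of the reference annotation GSY2 is followed by HSP60 and then by LCB5, one of the genes deleted in lcb4D/lcb5D.

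GSY1, the second synthase gene, read 5.80 and 7.64 before heat in JK939a, 5.95 and 6.93 in dpl1D, and 5.45 and 4.88 in lcb4D/lcb5D. Its heated arrays ran from 7.33 to 9.90 (median 9.07) in JK939a, from 7.28 to 10.1 (median 9.01) in dpl1D, and from 6.08 to 9.21 (median 8.60) in lcb4D/lcb5D. In JK939a 1 heated array lay below the higher array before heat, and in the deletion strains none did. The log2 rise was 2.17 ± 0.40 in JK939a (4.50-fold; adjusted p = 6.88e-05), 2.42 ± 0.40 in dpl1D (5.36-fold; adjusted p = 1.61e-05) and 3.13 ± 0.40 in lcb4D/lcb5D (8.73-fold; adjusted p = 6.45e-07). Without the JK939a array that stands apart the JK939a value was 1.25 ± 0.48 (adjusted p = 0.0453).

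The branching enzyme gene GLC3 read 5.83 and 6.73 before heat in JK939a, 5.37 and 5.27 in dpl1D, and 5.64 and 5.15 in lcb4D/lcb5D. Heated arrays ran from 8.87 to 10.3 in JK939a, from 8.65 to 10.0 in dpl1D and from 7.35 to 10.4 in lcb4D/lcb5D, with no overlap. GLC3 had the highest change of the 10 genes in lcb4D/lcb5D, where the log2 rise was 4.12 ± 0.31 (adjusted p = 8.09e-11). PGM2 was next there with 3.93, within that SE. The rise of GLC3 was 3.29 ± 0.31 in JK939a (adjusted p = 3.58e-09) and 4.21 ± 0.31 in dpl1D (adjusted p = 3.27e-11).

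GAC1, the phosphatase subunit, read 3.89 and 4.28 before heat in JK939a, 3.22 and 3.77 in dpl1D, and 3.35 and 3.28 in lcb4D/lcb5D. Heated arrays ran from 6.01 to 7.95 in JK939a, from 6.08 to 7.89 in dpl1D and from 4.86 to 8.23 in lcb4D/lcb5D, above those before heat in all 3 strains. Its log2 rise was 2.79 ± 0.48 in JK939a (adjusted p = 3.13e-05), 3.52 ± 0.48 in dpl1D (adjusted p = 1.14e-06) and 3.04 ± 0.48 in lcb4D/lcb5D (adjusted p = 1.24e-05).

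The breakdown genes rose as the synthesis genes did. GPH1, the phosphorylase, read 6.19 and 6.23 before heat in JK939a, 5.79 and 4.92 in dpl1D, and 5.66 and 7.18 in lcb4D/lcb5D. Its heated arrays ran from 9.14 to 10.96 in JK939a, from 9.18 to 10.8 in dpl1D and from 9.07 to 10.9 in lcb4D/lcb5D, with no overlap. GPH1 rose by 3.98 ± 0.29 (log2) in JK939a (15.8-fold; adjusted p = 4.99e-11), 4.90 ± 0.29 in dpl1D (29.8-fold; adjusted p = 7.2e-13) and 3.58 ± 0.29 in lcb4D/lcb5D (11.9-fold; adjusted p = 3.13e-10).

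GDB1, the debranching enzyme gene, read 6.86 and 7.14 before heat in JK939a, 6.92 and 6.52 in dpl1D, and 6.84 and 7.73 in lcb4D/lcb5D. Its heated arrays ran from 8.71 to 11.1 in JK939a, from 8.63 to 11.4 in dpl1D and from 8.69 to 11.5 in lcb4D/lcb5D, and none overlapped the arrays before heat. GDB1 rose by 3.21 ± 0.30 (log2) in JK939a (9.26-fold; adjusted p = 3.89e-09), 3.63 ± 0.30 in dpl1D (12.3-fold; adjusted p = 3.23e-10) and 3.31 ± 0.30 in lcb4D/lcb5D (9.93-fold; adjusted p = 2.59e-09).

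**Figure D2:**
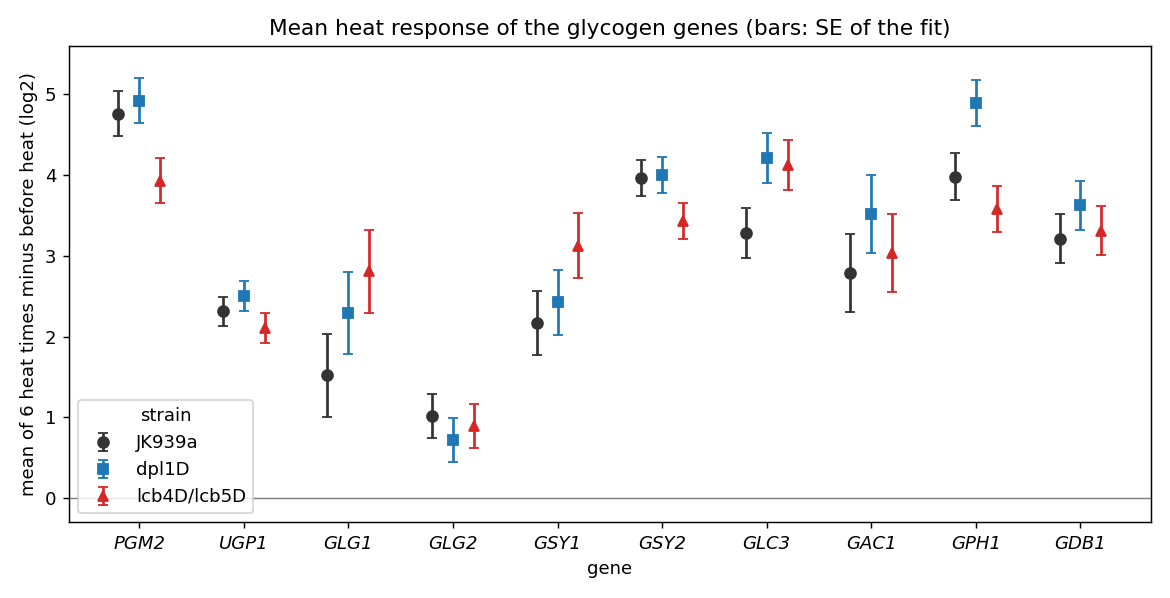
The log2 mean of the 6 heat times minus before heat is plotted for each gene and strain, with the SE of the fit as bars. PGM2 stands highest in JK939a (4.76) and dpl1D (4.92), GLC3 in lcb4D/lcb5D (4.12), and GLG2 lowest in all 3 strains (0.72 to 1.01). In dpl1D and lcb4D/lcb5D the next gene lies within the SE bar of the highest.

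Within the first 5 min, 8 of the 10 genes were already called higher in JK939a (6.93% of all genes were), 9 in dpl1D (6.77%) and 9 in lcb4D/lcb5D (7.21%). GLG2 was not called at 5 min in any strain, with log2 changes of 0.41 ± 0.35 in JK939a (adjusted p = 0.561), 0.02 ± 0.35 in dpl1D (adjusted p = 0.986) and 0.16 ± 0.35 in lcb4D/lcb5D (adjusted p = 0.852). The other gene not called at 5 min in JK939a was GLG1 (1.60 ± 0.67; adjusted p = 0.122). Over all 6 heat times, 54 of the 60 pairs of gene and time were called higher in JK939a (16.3% of all such pairs over the 5656 genes), 55 in dpl1D (15.9%) and 56 in lcb4D/lcb5D (14.4%), and none was called lower. The pairs not called belonged to GLG1, GLG2 and, at 30 min in JK939a and dpl1D, GSY1.

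Steps between neighbouring times were tested as the mean of the 3 strains. From before heat to 5 min, 9 of the 10 genes rose (14.6% of all genes did), the largest step being that of GLC3 (3.81 ± 0.23, log2; adjusted p = 1.43e-12). From 5 to 10 min 6 genes rose further (9.21% of all genes). These were GDB1 (1.29 ± 0.23; adjusted p = 0.000145), GPH1 (1.06 ± 0.22; adjusted p = 0.000713), PGM2 (0.91 ± 0.21; adjusted p = 0.00219), GSY2, GLG2 and UGP1, the last 3 by 0.56 to 0.69. For GLG2 this was its first step past the threshold (0.69 ± 0.20; adjusted p = 0.0143). After 10 min no step of a glycogen gene was called, and few or no genes of the array were: 2.67% of all genes from 10 to 15 min, and 0% from 15 to 20, 0% from 20 to 25 and 0% from 25 to 30 min. At an unadjusted p under 0.05 the glycogen genes numbered 2, 0, 5 and 0 in these 4 steps. Of all 5656 genes, 680, 203, 631 and 283 reached that level. From 20 to 25 min all 10 values were below 0, from -0.90 for GSY1 to -0.24 for GAC1.

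The genes therefore differed in how soon they neared their largest rise. In each of the 6 replicate courses (3 strains, 2 replicates) the rise at 5 min was expressed as a percentage of that course's largest rise on the log2 scale. As medians of the 6 courses, GSY1 had reached 97.3% at 5 min, GLC3 88.7%, GAC1 87.6% and GLG1 87.2%. PGM2 had reached 74.8%, GSY2 74.5%, GPH1 68.6% and UGP1 62.5%. GDB1 followed with 46.3% and GLG2 with 15.7%. The 6 courses of GSY1 (91.5 to 100%) did not overlap those of GSY2 (68.1 to 78.7%), and those of GDB1 (42.6 to 57.5%) lay below both. Other ranges overlapped. Those of GAC1 (78.8 to 100%), GLC3 (75.6 to 93.7%) and GLG1 (60.3 to 92.5%) overlapped that of GSY1. That of UGP1 (53.4 to 69.6%) overlapped those of GSY2 and GDB1. At 30 min GSY1 kept a median of 30.8% of its largest rise (12.4 to 76.4% over the 6 courses) and GSY2 87.8% (63.8 to 91.05%), so here the courses overlapped. In replicate 2 of lcb4D/lcb5D the order was reversed, with 76.4% for GSY1 and 67.5% for GSY2. The largest value of a course came at 5 to 15 min for GSY1 and GAC1, at 15 to 20 min for GSY2, PGM2 and UGP1, and at 20 to 25 min for GDB1.

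**Figure D3:**
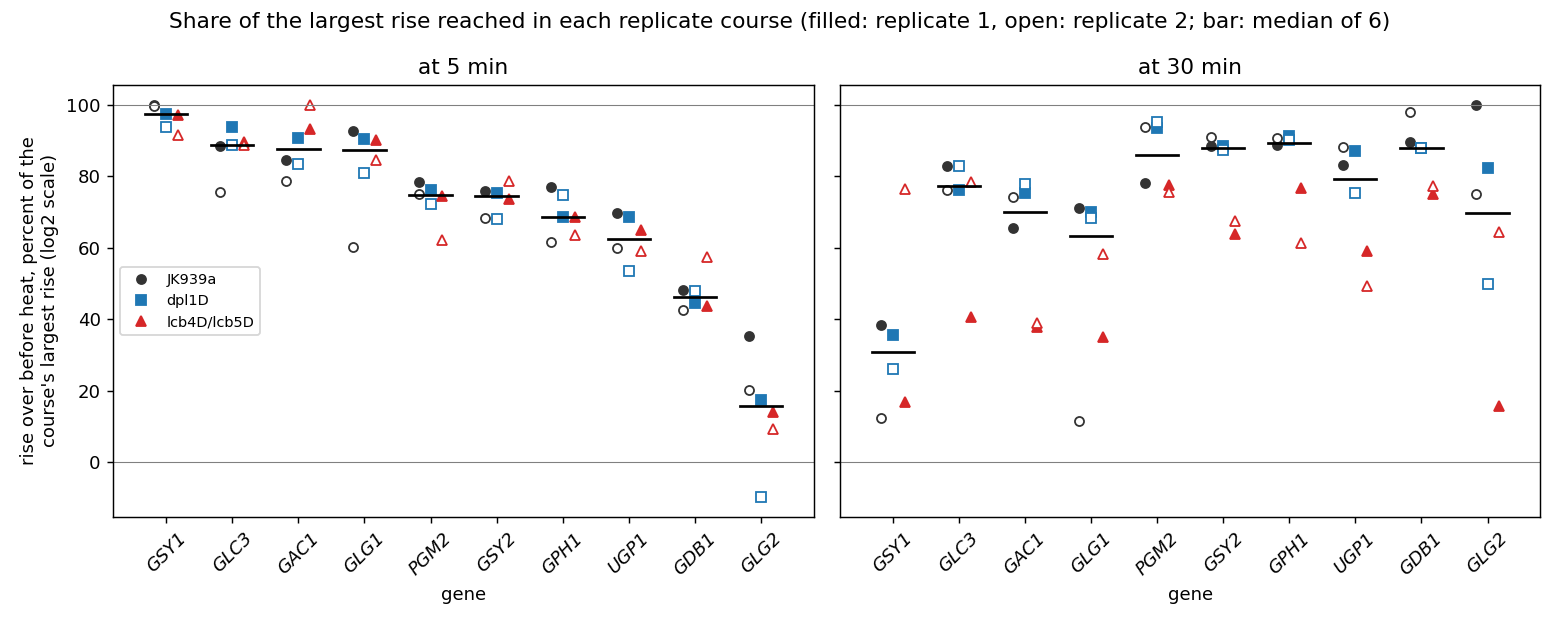
The rise over before heat at 5 min (left) and 30 min (right) is plotted as a percentage of the largest log2 rise of each of the 6 replicate courses, with a bar at their median. At 5 min the medians run from 97.3% for GSY1 to 15.7% for GLG2, and at 30 min GSY1 has the lowest median, 30.8%.

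GSY1 fell again in all 3 strains while heat went on. In JK939a its arrays read 9.77 and 9.89 at 5 min, 9.71 and 9.90 at 10 min, 8.24 and 8.05 at 25 min, and 7.33 and 7.92 at 30 min. In dpl1D they read 9.60 and 9.87, 9.69 and 10.1, 7.85 and 8.06, and 7.28 and 7.75 at the same times. In lcb4D/lcb5D they read 9.11 and 8.53, 9.21 and 8.37, 7.67 and 7.30, and 6.08 and 7.93. In every strain the 4 arrays at 25 and 30 min lay below the 4 arrays at 5 and 10 min. The change from 5 and 10 min to 25 and 30 min, a comparison added after the values were seen, was -1.93 ± 0.37 in JK939a (adjusted p = 0.000427), -2.07 ± 0.37 in dpl1D (adjusted p = 0.000176) and -1.56 ± 0.37 in lcb4D/lcb5D (adjusted p = 0.00473), on the log2 scale. At 30 min GSY1 was 0.90 ± 0.52 above before heat in JK939a (adjusted p = 0.189), 1.08 ± 0.52 in dpl1D (adjusted p = 0.108) and 1.84 ± 0.52 in lcb4D/lcb5D (adjusted p = 0.0107). The JK939a value rests on the array that stands apart (5.80 before heat). The other JK939a array before heat read 7.64, between the 2 arrays at 30 min.

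GDB1 moved the other way over the same times. In JK939a its arrays read 8.71 and 8.82 at 5 min, 9.82 and 10.2 at 10 min, 9.97 and 10.7 at 25 min, and 10.3 and 10.99 at 30 min. In dpl1D they read 8.63 and 8.85, 9.69 and 10.3, 10.8 and 11.3, and 10.3 and 10.8. In lcb4D/lcb5D they read 8.69 and 9.91, 10.2 and 11.2, 10.8 and 11.1, and 10.02 and 10.7. The 4 late arrays overlapped the 4 early ones in JK939a and in lcb4D/lcb5D, and in dpl1D the lowest late array was just above the highest early one. The change was 1.10 ± 0.28 in JK939a (adjusted p = 0.00623) and 1.42 ± 0.28 in dpl1D (adjusted p = 0.00052). In lcb4D/lcb5D the value was 0.66 ± 0.28 (adjusted p = 0.115), and with replicates blocked within each strain its adjusted p was 0.00446.

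In all, 2 of the 10 genes were called in this comparison in JK939a (17.5% of all genes were called in either direction), 2 in dpl1D (20.2%) and 3 in lcb4D/lcb5D (14.9%). In JK939a and dpl1D these shares are near those of all genes. The other genes called in lcb4D/lcb5D were GLC3 (-1.19 ± 0.28; adjusted p = 0.00504) and GAC1 (-1.52 ± 0.45; adjusted p = 0.0217). Without the lcb4D/lcb5D array of replicate 1 at 30 min, GSY1 alone was called there, GLC3 giving -0.72 (adjusted p = 0.0515) and GAC1 -1.43 (adjusted p = 0.0624). With the replicate block within strains the count in lcb4D/lcb5D was 5 (26.7% of all genes called), the additions being GDB1 and GLG1 (-1.02 ± 0.24; adjusted p = 0.00251). In dpl1D it was 3 (32.1% of all genes), GLG2 being the addition (0.51 ± 0.19; adjusted p = 0.0458). With the arrays centred on the bacterial hybridisation controls, the counts were 0 in JK939a (2.42% of all genes called), 1 in dpl1D (4.56%) and 0 in lcb4D/lcb5D (1.33%).

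The comparison of 25 and 30 min with 15 and 20 min gave 0 calls in JK939a (0.743% of all genes called) and 0 in dpl1D (0.0707%). At an unadjusted p under 0.05 stood 2 glycogen genes in each, and 756 and 599 of all 5656 genes. In limma's test GSY1 had the lowest p in dpl1D, with a change of -1.30 ± 0.37 (adjusted p = 0.198), and its change in JK939a was -1.09 ± 0.37 (adjusted p = 0.158). In lcb4D/lcb5D 4 genes fell, where 1.03% of all genes were called lower: GLC3 by 1.33 ± 0.28 (log2; adjusted p = 0.0108), UGP1 by 0.74 ± 0.17 (adjusted p = 0.0158), GSY1 by 1.58 ± 0.37 (adjusted p = 0.0185) and GSY2 by 0.82 ± 0.21 (adjusted p = 0.0242). For GLC3 the 2 replicate arrays at 30 min read 7.35 and 9.24, and for GSY1 6.08 and 7.93, replicate 1 being the lower in both. For GSY2 they read 10.7 and 10.98, and for UGP1 11.1 and 11.1. Without that replicate 1 array at 30 min none of the 4 calls was kept: GSY1 gave -1.12 (adjusted p = 0.208), GSY2 -0.75 (adjusted p = 0.173), GLC3 -0.86 (adjusted p = 0.136) and UGP1 -0.74 (adjusted p = 0.0954). Likewise 0 were left without replicate 2 at 25 min or without replicate 2 at 15 min; 1 was left without replicate 1 at 20 min and 2 without replicate 1 at 15 min. With the replicate block within strains the counts were 2 in JK939a (GSY1, adjusted p = 0.0318, and GLC3, adjusted p = 0.0407), 1 in dpl1D (GSY1, adjusted p = 0.0241) and 7 in lcb4D/lcb5D. That fit called more of all genes too: 6.84% in JK939a, 2.78% in dpl1D and 13.5% in lcb4D/lcb5D. The strain difference in this change was not called for any of the 10 genes, for any pair of strains (0%, 0% and 0.0177% of all genes were).

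The 2 synthase genes were set against each other by the difference of their signals on each array, GSY2 minus GSY1. Only the change of this difference is read, since the levels of different probe sets cannot be compared. In JK939a the difference was 1.28 and 0.84 on the 2 arrays at 5 min and 4.23 and 3.95 at 30 min. In dpl1D it was 1.39 and 1.01 at 5 min and 4.23 and 4.10 at 30 min. In lcb4D/lcb5D it was 1.97 and 2.91 at 5 min, 2.82 and 3.047 at 10 min, 4.11 and 4.22 at 25 min, and 4.604 and 3.055 at 30 min, so that replicate 2 at 30 min was barely above replicate 2 at 10 min. From 5 and 10 min to 25 and 30 min GSY2 changed more than GSY1 by 2.43 in JK939a, 2.43 in dpl1D and 1.31 in lcb4D/lcb5D (log2). Each strain's 4 late arrays lay above its 4 early ones, and the two-sided exact permutation p was 0.0286 in each strain, the smallest that 70 arrangements allow (0.0286 after adjustment over 6 tests). Leaving out single arrays, the p reached 0.0571 in 4 of 8 cases in lcb4D/lcb5D and stayed at 0.0286 in JK939a and dpl1D. Permuting within replicate numbers, the smallest p that can be reached gave an adjusted 0.0556. The same comparison of the glycogenin genes, GLG2 minus GLG1, gave 1.08 in JK939a, 0.98 in dpl1D and 1.09 in lcb4D/lcb5D, with the same p. Without single arrays that p reached 0.0571 in JK939a and dpl1D and 0.0857 in lcb4D/lcb5D. These 6 comparisons were added after the values were seen.

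Over all heated arrays against those before heat, the pairs did not differ past the threshold. GSY2 rose more than GSY1 by 1.80 in JK939a (exact permutation test, adjusted p = 0.148), 1.58 in dpl1D (adjusted p = 0.148) and 0.31 in lcb4D/lcb5D (adjusted p = 0.593). GLG2 minus GLG1 gave -0.51 in JK939a (exact permutation test, adjusted p = 0.488), -1.58 in dpl1D (adjusted p = 0.0659) and -1.91 in lcb4D/lcb5D (adjusted p = 0.0659).

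**Figure D4:**
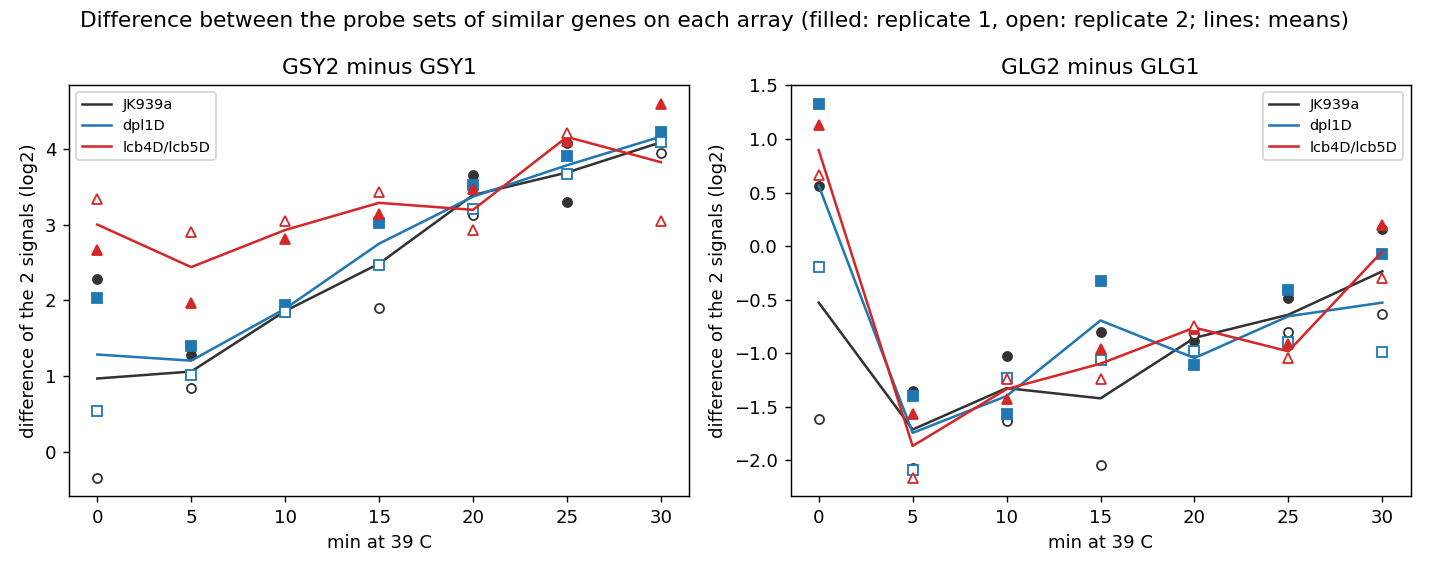
The difference of the 2 log2 signals on each array is plotted against min at 39 C for GSY2 minus GSY1 (left) and GLG2 minus GLG1 (right), with lines through the means of the 2 arrays. Between 5 to 10 min and 25 to 30 min GSY2 minus GSY1 climbs by 2.43 in JK939a and dpl1D and by 1.31 in lcb4D/lcb5D.

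Few differences of the glycogen genes between strains passed the test. Before heat, 0 of the 10 differed between dpl1D and JK939a (0.0177% of all genes were called), 0 between lcb4D/lcb5D and JK939a (0.106%) and 0 between dpl1D and lcb4D/lcb5D (0.141%). At an unadjusted p under 0.05 stood 2, 2 and 3 of the 10, and 131, 250 and 185 of all 5656 genes. The widest difference of the 10 before heat was that of GSY1 for lcb4D/lcb5D minus JK939a, at -1.56 ± 0.52 (95% interval -2.63 to -0.48, adjusted p = 0.649). Without the JK939a array that stands apart it was -2.48 ± 0.57, and passed the threshold (adjusted p = 0.0491) as the 1 glycogen gene that did. Averaged over the 7 times, 0 of the 10 differed between dpl1D and JK939a (0.0177% of all genes), with all 10 adjusted p at 0.998 and differences from -0.24 (PGM2; 95% interval -0.52 to 0.04) to 0.12 (GLG2; -0.16 to 0.39).

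Averaged over the 7 times, GSY1 was lower in lcb4D/lcb5D, though not by the same amount at each time. Before heat its mean was 5.16 there, against 6.72 in JK939a and 6.44 in dpl1D. At 20 min the means were 8.74, 8.70 and 8.86. Its 14 arrays per strain had a lowest, median and highest signal of 5.80, 8.59 and 9.90 in JK939a, 5.95, 8.60 and 10.1 in dpl1D, and 4.88, 8.45 and 9.21 in lcb4D/lcb5D, so the strains overlapped over the whole course. At matched times lcb4D/lcb5D minus JK939a averaged -0.74 ± 0.20 (adjusted p = 0.0113). UGP1 was the other gene called, at -0.31 ± 0.09 (adjusted p = 0.0183), and without the JK939a array that stands apart both were still called (-0.87, adjusted p = 0.00245, and -0.33, adjusted p = 0.0203). The 2 of 10 genes compare with 19.5% of all genes called in either direction. For dpl1D minus lcb4D/lcb5D only GSY1 was called (0.67 ± 0.20; adjusted p = 0.0263; 12.8% of all genes called). That call was lost, at adjusted p of 0.0501 to 0.0585, without any 1 of 9 arrays: dpl1D replicate 2 before heat or at 15, 20 or 30 min, lcb4D/lcb5D replicate 2 before heat or at 5, 10 or 25 min, and lcb4D/lcb5D replicate 1 at 30 min. In replicate 1 alone the GSY1 difference from JK939a was -0.41 and in replicate 2 alone -1.07. These strain differences depended on how the replicate courses enter the fit. With a block within strains 4 genes were called in each of these pairs, where that fit called 33.9% of all genes against JK939a and 28.3% for dpl1D minus lcb4D/lcb5D, GDB1 (0.37 ± 0.09; adjusted p = 0.00265) and GAC1 (-0.55 ± 0.18; adjusted p = 0.0226) being the additions against JK939a. With the course as a random block, which keeps the spread between courses, 0 were called (0.371% and 0.495% of all genes), GSY1 having an adjusted p of 0.441 against JK939a and 0.622 against dpl1D. UGP1 against JK939a had an adjusted p of 0.524 in that fit. The call of UGP1 was also lost with cyclic loess (-0.20, adjusted p = 0.0624). Centring on the hybridisation controls lost UGP1 (-0.43, adjusted p = 0.944) and GSY1 (-0.86, adjusted p = 0.105) against JK939a.

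The heat response itself did not differ between strains past the threshold for any of the 10 genes, either as its mean (0%, 0.0177% and 0% of all genes called in the 3 pairs of strains) or at any time in a joint test (0%, 0.0177% and 0.0354%). At an unadjusted p under 0.05 the mean response of 2 genes differed for dpl1D minus JK939a, of 1 for lcb4D/lcb5D minus JK939a and of 2 for dpl1D minus lcb4D/lcb5D. Of all 5656 genes, 111, 171 and 172 reached that level in these pairs. The intervals are wide. For GSY2 the difference in mean response was 0.03 for dpl1D minus JK939a (95% interval -0.61 to 0.68), and -0.54 for lcb4D/lcb5D minus JK939a (-1.18 to 0.11). For GPH1 it was 1.32 for dpl1D minus lcb4D/lcb5D (95% interval 0.48 to 2.16; adjusted p = 0.878), the largest of all 30 differences, and for GLG1 1.29 for lcb4D/lcb5D minus JK939a (-0.20 to 2.77; adjusted p = 0.999).

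The 2 replicate courses also differed within the glycogen genes. GLG1 read higher in replicate 2 than in replicate 1 in 21 of 21 groups, by a mean of 0.89, and GDB1 in 20 of 21, by 0.47. For GSY2, GPH1, PGM2 and UGP1 that mean lay between -0.03 and 0.04. The SD within groups ran from 0.23 for UGP1 to 0.72 for GLG1.

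The 10 genes shared most of their course over the 21 group means, which include the step from before heat. All these means come from the same arrays. The Pearson correlation of a gene with the mean of the other 9 was highest for GSY2 (0.98), GLC3 (0.98), UGP1 (0.98) and GPH1 (0.97), and lowest for GSY1 (0.73) and GLG2 (0.76). Over the 18 heated groups, leaving out the shared step from before heat, GSY1 correlated with GLG1 at 0.72, with GLC3 at 0.69 and with GAC1 at 0.68, but with GSY2 at 0.01 and with GDB1 at -0.48. GLG2 there correlated with GDB1 at 0.92 and with GPH1 at 0.85. Low values over the heated groups were not particular to GSY1. GAC1 correlated there with GDB1 at -0.31, with GLG2 at -0.20 and with PGM2 at -0.04, and GLG1 with GDB1 at 0.05. The genes outside the lists whose group means were most like the mean of the 10 were YNL194C (Pearson 0.995 over 21 groups), SPI1, RTC3, RGI1, GID11, CTT1, SYM1, GGA1, TPK2 and PNS1 (0.988). SPI1 encodes a cell wall protein and CTT1 the cytosolic catalase. TPK2 encodes a catalytic subunit of protein kinase A. Its mean heat response was the lowest of these 10 in each strain: 1.64 in JK939a, 1.87 in dpl1D and 1.72 in lcb4D/lcb5D. That of YNL194C was the highest, at 6.01, 6.48 and 5.94.

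Other genes of the pathway were taken as lists. Of 18 regulators of glycogen synthase and phosphorylase, 8 were called higher with heat in JK939a, 10 in dpl1D and 9 in lcb4D/lcb5D, where 21.8%, 20.6% and 19.1% of all genes were called higher. None was called lower, where 24.5% of all genes were in JK939a, 26.6% in dpl1D and 25.2% in lcb4D/lcb5D. The medians of the 18 log2 changes were 0.53, 0.66 and 0.62. GIP2, another glycogen-targeting partner of Glc7, rose by 4.0 ± 0.37 in JK939a (adjusted p = 3.14e-09), 4.23 in dpl1D and 4.18 in lcb4D/lcb5D. PIG2, which resembles GIP2, rose by 1.65 ± 0.56 in JK939a (adjusted p = 0.0169). The kinase gene PSK1 rose by 1.42 ± 0.20 in JK939a, and the Glc7 regulators GLC8, YPI1 and SDS22 by 1.34 ± 0.20, 1.27 ± 0.18 and 1.07 ± 0.36. The phosphatase gene GLC7 itself was not called (0.16 ± 0.17 in JK939a, adjusted p = 0.468; 0.39 ± 0.17 in dpl1D, adjusted p = 0.0614; 0.26 ± 0.17 in lcb4D/lcb5D, adjusted p = 0.229). Nor was SNF1, the energy-sensing kinase gene (-0.24 ± 0.17 in JK939a, adjusted p = 0.261).

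Of 8 other enzymes and inhibitors at the glucose phosphate and glycogen steps, 6 were called higher in each strain, where 21.8%, 20.6% and 19.1% of all genes were. In JK939a 1 was called lower, in dpl1D 2 and in lcb4D/lcb5D 2, where 24.5%, 26.6% and 25.2% of all genes were. IGD1, which encodes an inhibitor of Gdb1 and lies 2 genes from GSY1, rose by 3.60 ± 0.41 in JK939a (adjusted p = 9.59e-08). The hexokinase gene HXK1 rose by 2.65 ± 0.33, the glucokinase gene GLK1 by 2.47 ± 0.23, its relative EMI2 by 1.88 ± 0.34 and SGA1, the sporulation glucoamylase gene, by 1.83 ± 0.23. PRM15, a phosphomutase gene related to PGM1 and PGM2, rose by 1.42 ± 0.30 in JK939a (adjusted p = 0.000369). HXK2, the hexokinase gene of growth on glucose, fell by 1.24 ± 0.32 in JK939a (adjusted p = 0.00209), with -1.08 in dpl1D and -1.71 in lcb4D/lcb5D. PGM1, the second phosphoglucomutase gene, had -0.32 ± 0.17 in JK939a (adjusted p = 0.12), -0.76 ± 0.17 in dpl1D (adjusted p = 0.000466) and -0.61 ± 0.17 in lcb4D/lcb5D (adjusted p = 0.00404), opposite in sign to PGM2.

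The 7 genes of trehalose, the other store made from UDP-glucose, were all called higher in all 3 strains (21.8%, 20.6% and 19.1% of all genes were), with medians of 2.53 in JK939a, 3.19 in dpl1D and 2.81 in lcb4D/lcb5D. TSL1, a regulatory subunit of trehalose synthase, rose by 4.0 ± 0.21 in JK939a, the phosphatase gene TPS2 by 3.71 ± 0.23 and the trehalase gene NTH1 by 3.01 ± 0.23. As with glycogen, genes of synthesis and of breakdown were thus both among those that rose.

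**Figure D5:**
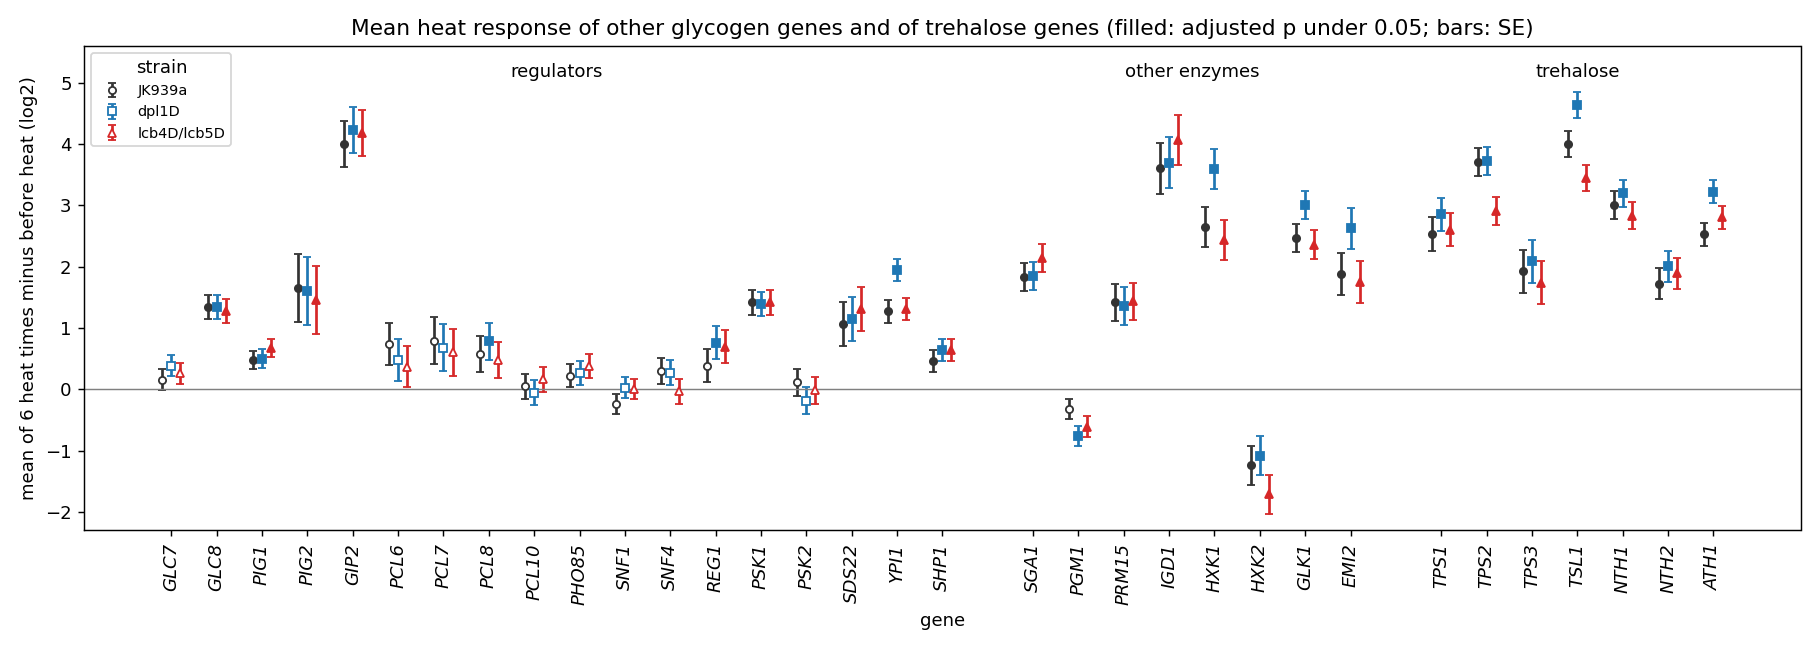
The log2 mean of the 6 heat times minus before heat is plotted for 18 regulators, 8 other enzymes and 7 trehalose genes in each strain, with SE bars and filled symbols where the adjusted p was under 0.05. GIP2 (4.0 in JK939a) and IGD1 (3.60) stand high, HXK2 (-1.24) and PGM1 (-0.32) lie below 0, and all 7 trehalose genes are above 1.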

How the data were processed

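The authors deposited log2 signals made with RMA (background correction, quantile normalisation and a summary per probe set), a tool named in the submitters' processing notes. The log base was inferred from the values, and no coordinates are printed, since neither the genome build nor the software version was stated in labels or headers. This normalisation hides a shift common to all transcripts (array medians 5.61 to 5.80). Arrays have no depth, and their number limits the precision. Of 9335 probe sets, 6504 have 1 gene symbol. They name 5656 genes, each read from its probe set of highest mean, with no filter on dim signals. No 2 arrays were identical, and arrays of a group correlated at 0.942 to 0.980.

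limma 3.58.1 (R 4.3.3) was used to fit a mean for each of 21 groups, leaving 21 residual degrees of freedom; p-values are two-sided and were adjusted over all genes of a contrast by Benjamini-Hochberg, with calls at 0.05. Pairs of similar genes were compared on array differences with exact permutation tests. The 10 genes and the lists were chosen with earlier results of these data known. Named are the 10 genes, the deleted genes, up to 6 called genes of largest change in each of the lists of 18 regulators, 8 enzymes and 7 trehalose genes, and the 10 genes most like the mean of the 10; GLC7, SNF1, PGM1 and, in JK939a and dpl1D, HXK2 were named after their values were seen.

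Replicate numbers come from the labels. The residuals of arrays that share a number correlated above 0.1 in 63 of 63 combinations within strains (lowest 0.192) and in 209 of 210 over all groups (lowest 0.067), so the numbers were treated as pairing arrays within strains. Alternatives were median centring, cyclic loess, centring on 9 hybridisation control probe sets, an adjusted p under 0.01, dropping the dimmest 25% of genes, trend and robust moderation, array weights, the mean of probe sets, replicate blocks, each replicate course alone, and leaving out each array. The tests were first tried on simulated data with known changes. For the mean heat response of JK939a, 16.4%, 71.6% and 93.9% of changes of 0.5, 1 and 2 (log2) were recovered. For the difference in mean heat response between lcb4D/lcb5D and JK939a the shares were 1.49%, 26.9% and 86.4%. Strain differences of 1 or less in the heat response would thus mostly be missed.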

Additional observations from a re-analysis of the deposited data

Results flagged for a closer look

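In 5 of 90 comparisons (10 genes, 9 comparisons each: 3 pairs of strains by 3 changes), both replicate courses of one strain moved up while both courses of another moved down. The 3 changes were 2 late ones and the mean heat response. All 5 comparisons were of the late changes. From 5 and 10 min to 25 and 30 min, GSY2 changed by 0.25 and 0.75 in the 2 JK939a courses, by 0.32 and 0.39 in dpl1D and by -0.32 and -0.18 in lcb4D/lcb5D (log2). The difference was -0.75 between lcb4D/lcb5D and JK939a (limma, adjusted p = 0.445; 0.22 with the replicate block) and 0.61 between dpl1D and lcb4D/lcb5D (adjusted p = 0.6; 0.316 with the block). UGP1, over the same times, changed by 0.01 and 0.46 in JK939a, 0.42 and 0.15 in dpl1D and -0.12 and -0.09 in lcb4D/lcb5D. Its difference was -0.34 between lcb4D/lcb5D and JK939a (adjusted p = 0.816; 0.539 with the block) and 0.39 between dpl1D and lcb4D/lcb5D (adjusted p = 0.711; 0.448 with the block). From 15 and 20 min to 25 and 30 min, GLG2 changed by 0.05 and 0.03 in JK939a and by -0.58 and -0.65 in lcb4D/lcb5D, and the -0.65 between them had an adjusted p of 1 (0.861 with the block). None of the 5 differences passed the test over all genes. Courses of 2 strains moved in opposite directions in this way in 5.56% of the comparisons of the 10 genes and in 5.73% of those of all genes. In 1 of the 3 changes, the mean heat response, every course of the 10 genes rose, so none could be opposite. The 2 shares are therefore not a like comparison of the late changes.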

How the results depend on the processing

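All 10 genes were called higher with heat in every strain with median centring, cyclic loess and each replicate block; centring on the hybridisation controls put the median of all genes at 0.26, 0.16 and 0.22 (log2) in JK939a, dpl1D and lcb4D/lcb5D, and GLG2 was not called in any strain (adjusted p = 0.118, 0.332 and 0.216). For the mean response that centring called 910, 925 and 712 of all 5656 genes in either direction, where the main fit called 2621, 2671 and 2505. Median centring, cyclic loess and the replicate blocks called 2614 to 3288. The centring on the controls gave 9 called steps in place of 15. Without single arrays, the counts of genes called for the mean response ran from 8 to 10 in JK939a and in dpl1D and from 9 to 10 in lcb4D/lcb5D.

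For the change from 5-10 to 25-30 min the hybridisation controls gave 0, 1 and 0 genes in JK939a, dpl1D and lcb4D/lcb5D, against 2, 2 and 3, with the median of all genes at 0.46, -0.30 and 0.01, and each of the 3 replicate blocks gave 5 in lcb4D/lcb5D (1 to 4 without single arrays). In dpl1D the replicate block within or across strains gave 3, GLG2 being added (0.51, adjusted p = 0.0458 and 0.0438), and cyclic loess gave 3 in JK939a and 4 in lcb4D/lcb5D. For this change the main fit called 992, 1144 and 845 of all 5656 genes in JK939a, dpl1D and lcb4D/lcb5D. The hybridisation controls called 137, 258 and 75. In lcb4D/lcb5D the blocks within strains, across strains and as a random effect called 1510, 1411 and 1484. In dpl1D those within and across strains called 1814 and 1706. Cyclic loess called 1087 in JK939a and 908 in lcb4D/lcb5D. For the change from 15-20 to 25-30 min, JK939a gave 2 genes with the replicate block within strains, 1 across strains and 2 as a random effect. Of all genes these blocks called 387, 283 and 330 there (42 in the main fit), and 157, 72 and 117 in dpl1D (4). In lcb4D/lcb5D the block within strains called 761 of all genes, the hybridisation controls 3 and an adjusted p under 0.01 gave 40 (216 in the main fit). In dpl1D each replicate block gave 1 (0 to 1 without single arrays, 1 being without replicate 1 at 15 min). In lcb4D/lcb5D the replicate block within strains gave 7, the hybridisation controls 0, an adjusted p under 0.01 gave 0, and leaving out single arrays 0 to 4. Against JK939a, lcb4D/lcb5D averaged over the times gave 2 genes, but 4 with the replicate block within strains and 0 with the random block, the hybridisation controls or an adjusted p under 0.01, and 2 to 4 without single arrays, 4 being without lcb4D/lcb5D replicate 1 at 10 min. Before heat it gave 0 to 1, the 1 being without the JK939a array that stands apart. dpl1D against lcb4D/lcb5D gave 1 gene, but 2 with median centring or cyclic loess, 4 and 3 with the replicate block within and across strains, 0 with the random block, the hybridisation controls or an adjusted p under 0.01, and 0 to 3 without single arrays. Averaged over the times, the main fit called 1104 of all genes for lcb4D/lcb5D against JK939a and 725 for dpl1D against lcb4D/lcb5D. The block within strains called 1919 and 1599, the random block 21 and 28, and the hybridisation controls 112 and 94. An adjusted p under 0.01 gave 436 and 262. For dpl1D against lcb4D/lcb5D, median centring called 698, cyclic loess 689 and the block across strains 1430. The cause of the spread over settings was not tested.

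For pairs of similar genes, permutation within replicate numbers, as a replicate block, left the changes from 5-10 to 25-30 min (GSY2 minus GSY1 2.43, 2.43 and 1.31; GLG2 minus GLG1 1.08, 0.98 and 1.09) at an adjusted p of 0.0556, the smallest it can give. Without single arrays, GSY2 minus GSY1 ran from 2.22 to 2.63 in JK939a, 2.25 to 2.56 in dpl1D and 1.07 to 1.62 in lcb4D/lcb5D, and GLG2 minus GLG1 from 0.88 to 1.25, 0.81 to 1.11 and 0.85 to 1.26. For heated against before heat, GSY2 minus GSY1 ran from 0.49 to 3.11 in JK939a, 0.82 to 2.33 in dpl1D and, turning sign, -0.035 to 0.65 in lcb4D/lcb5D; GLG2 minus GLG1 ran from -1.60 to 0.59, turning sign, in JK939a, from -2.34 to -0.81 in dpl1D and from -2.14 to -1.68 in lcb4D/lcb5D. Single replicate courses gave values and no test, and each has too few arrays for a count of calls. Of 2420 values of 44 called results of single genes, 0 changed sign and 69 missed the threshold. Many of these settings cannot move the log2 value. They are the stricter threshold, dropping dim genes, trend and robust moderation, and the mean of probe sets. The replicate blocks and leaving out arrays outside the contrast do not move it either. The 0 is therefore largely fixed in advance.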
